A study of Mus musculus with 36 samples.

Results

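Tumour-associated macrophages (TAM) from B16-F10 tumours, a mouse melanoma, were compared between mice given OMV-SIRP and mice given phosphate-buffered saline (PBS), across all genes measured. The comparison used 6 of the 36 RNA-sequencing libraries of the series, 3 after OMV-SIRP and 3 after PBS, taken by their labels. All mice were wild type, and the labels give neither age nor dose. OMV-SIRP belongs to a study of engineered bacterial outer membrane vesicles (OMV), and its labels do not spell out the SIRP part of the name. A further 3 libraries after OMV-SIRP-G, the other agent of the series, shared the table and the fit and are given beside the main values. According to the design text, 3 samples per group were pooled, and whether the replicate libraries came from different mice is not stated. P-values therefore measure only the spread between these libraries, which may be technical.

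Outer membrane vesicles are shed by Gram-negative bacteria and carry lipopolysaccharide and lipoproteins, which macrophages sense through Toll-like receptors. SIRP alpha, encoded by Sirpa, is a receptor on macrophages that restrains phagocytosis when it binds CD47 on another cell. Tumour macrophages are commonly described between an inflammatory state, marked by genes such as Nos2 and Il1b, and an alternative state, marked by genes such as Mrc1 and Arg1, and they can present antigen to T cells on MHC class II molecules.

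Between 13036567 and 14857107 gene-assigned reads lay behind each of the 6 libraries. Expression was given in FPKM, fragments per kilobase of gene and scaled to sequencing depth, and tested on log2(FPKM + 1) with limma. Replicate libraries correlated across genes at 0.929 to 0.937 after OMV-SIRP and 0.947 to 0.976 after PBS, and libraries of the 2 groups at 0.915 to 0.951. OMV-SIRP replicate 3 stood apart in gene length: its deviations from the group mean ran against gene length over 2896 genes (Spearman's rho -0.56), while those of replicates 1 and 2 ran with it (0.28 and 0.43). Results were therefore also computed without it.

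The macrophage label was checked against 14 identity markers, none of which was at 0. Cd68, a lysosomal glycoprotein of macrophages, had 641, 704 and 712 FPKM after OMV-SIRP, against 638, 650.4 and 644 FPKM after PBS. Adgre1, which encodes F4/80, had 62.5, 61.9 and 54.3 FPKM after OMV-SIRP, against 53.8, 61.0 and 62.8 FPKM after PBS. The groups overlapped for both genes. Melanoma cell genes were also plentiful: the 16 listed summed to 3027 to 3310 FPKM after OMV-SIRP and 3681 to 3968 FPKM after PBS. Pmel, a melanosome protein, had 1198, 1105 and 1110.4 FPKM after OMV-SIRP, against 1587, 1342 and 1321 FPKM after PBS, a log2 change of -0.31 ± 0.11 (SE, adjusted p = 0.326). Slc45a2, a melanosome transporter, was the 1 melanoma gene of 16 that passed the test, with a log2 change of -0.62 ± 0.10 (SE, adjusted p = 0.0139), a call lost without PBS 1, 2 or 3. In bulk RNA, fewer cells of a type and less RNA per cell cannot be told apart, so each change below is a change in the content of the sample.

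Of 12542 genes tested, 111 were higher after OMV-SIRP (0.885% of genes tested) and 71 were lower (0.566%) at a Benjamini-Hochberg adjusted p under 0.05. A change of at least 2-fold was seen in 61 of the higher genes and 55 of the lower. The median log2 change of all genes tested was -0.0066. Among the 182 called genes, 132 were protein coding, 74 higher and 58 lower, and many of the others were immunoglobulin segments. Some called genes, such as Igkv1-135, reached the 1 FPKM required for testing in the libraries of 1 group alone and so had to differ. Immunoglobulin, antigen-presentation and innate genes were among those that rose, and haemoglobin, T cell and cytotoxic genes among those that fell, as the plot of change against expression level shows. The counts of higher genes were 57, 70 and 96 without OMV-SIRP 1, 2 and 3 and 70, 51 and 62 without PBS 1, 2 and 3. The counts of lower genes were 40, 45 and 76 without OMV-SIRP 1, 2 and 3 and 33, 36 and 36 without PBS 1, 2 and 3.

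**Figure D1:**
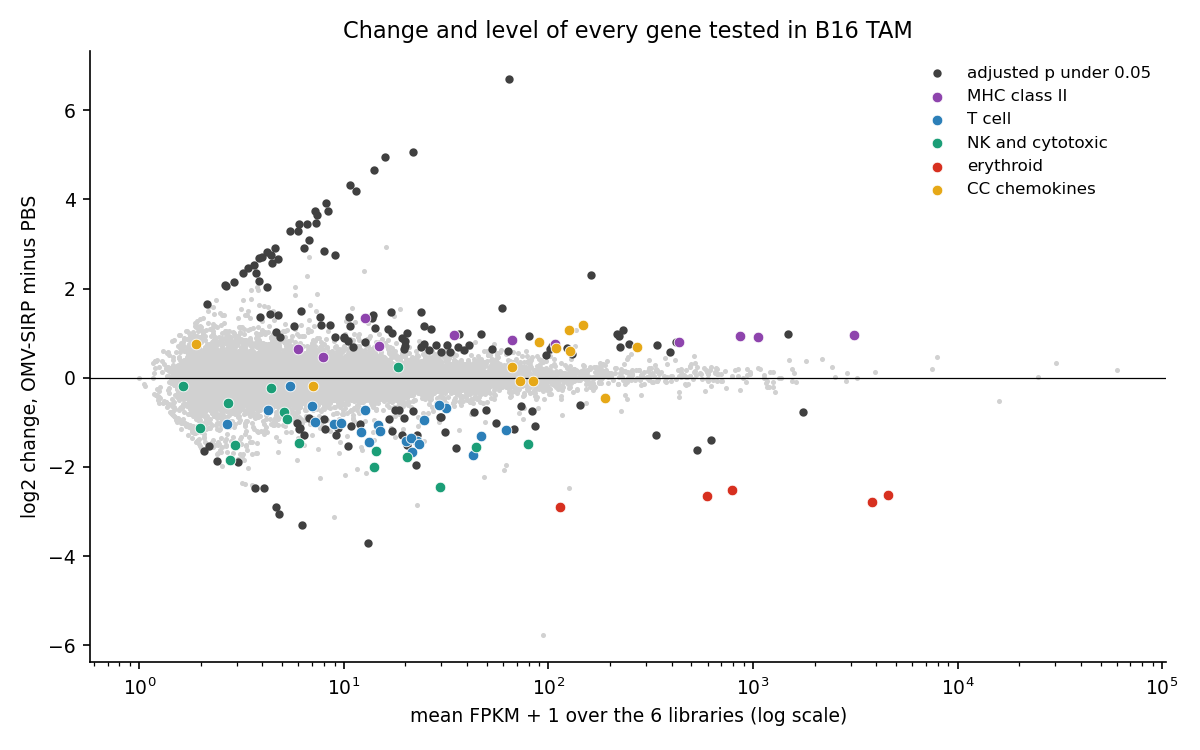
Each point is 1 of the 12542 genes tested, placed by its mean expression over the 6 libraries (FPKM + 1, log axis) and its log2 change in OMV-SIRP over PBS, with dark points past the adjusted p threshold of 0.05 and members of 5 gene lists in colour. Erythroid genes lie near -2.64, while MHC class II genes lie between 0.47 and 1.33.

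Most genes of the MHC class II pathway rose. Of the 11 listed, all tested, 8 rose and none fell, with a median log2 change of 0.84, against -0.0066 for all genes tested. This count and those of later lists stand beside 0.885% of all genes tested that rose and 0.566% that fell. The 8 were the chain genes H2-Aa, H2-Ab1 and H2-Eb1, the invariant chain Cd74, the peptide-exchange genes H2-DMa, H2-DMb1 and H2-DMb2, and the transactivator Ciita. Promoters of class II genes carry an X box and a Y box, bound by the RFX and NF-Y factors that CIITA joins. The 250 bases before the RefSeq start of 3 of the genes that rose are printed because they show how these elements are arranged in members of the group. Capitals mark the X box core AACNGATG and the Y box TGATTGG, searched on both strands. They are from GRCm38.p6, 5′ to 3′ on the strand of the gene, at chr17:34305617-34305866 on the plus strand for H2-Eb1, chr17:34144999-34145248 on the plus strand for H2-DMb2 and chr17:34287824-34288073 on the minus strand for H2-Aa.
H2-Eb1: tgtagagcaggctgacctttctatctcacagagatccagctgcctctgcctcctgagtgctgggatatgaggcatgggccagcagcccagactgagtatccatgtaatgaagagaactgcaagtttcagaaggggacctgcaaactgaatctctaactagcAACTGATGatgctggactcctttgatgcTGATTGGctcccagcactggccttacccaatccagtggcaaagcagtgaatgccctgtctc
H2-DMb2: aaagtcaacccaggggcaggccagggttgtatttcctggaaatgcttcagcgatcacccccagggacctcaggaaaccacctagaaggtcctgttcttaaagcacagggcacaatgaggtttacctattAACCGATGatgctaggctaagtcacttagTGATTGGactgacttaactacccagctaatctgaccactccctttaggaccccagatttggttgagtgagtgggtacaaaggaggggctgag
H2-Aa: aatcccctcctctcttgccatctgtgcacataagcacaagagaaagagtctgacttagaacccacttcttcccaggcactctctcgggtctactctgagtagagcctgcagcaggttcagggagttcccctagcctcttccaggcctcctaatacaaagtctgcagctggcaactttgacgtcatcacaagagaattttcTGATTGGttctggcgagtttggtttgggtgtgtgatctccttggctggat
In H2-Eb1 the X box core lay 89 to 82 bases before the start and the Y box 61 to 55 bases before it. H2-DMb2 had the same order, at 121 to 114 and 92 to 86 bases. H2-Aa held the Y box alone, 50 to 44 bases before its start. A window was given for 8 of the 11 listed genes: 4 held the X box core, which 1.98% of 32851 mouse promoter windows of this length held, and 7 held the Y box, held by 7.23%. The X box count included H2-Eb2, and the Y box count H2-Eb2, H2-Oa and H2-Ob, none of which passed the test. H2-DMa, which rose, held neither. All of these are letter matches and show no binding.

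Ciita (chr16:10480059-10528418 in GRCm38), the coactivator that class II transcription depends on, had 19.5, 20.2 and 12.2 FPKM after OMV-SIRP, against 4.78, 6.56 and 7.20 FPKM after PBS, a log2 change of 1.33 ± 0.21 (SE, adjusted p = 0.0117). Log2 changes ± SE are given in brackets from here on. Cd74, the chaperone that keeps the class II groove filled until the endosome, had 4133, 3946 and 4236 FPKM after OMV-SIRP, against 2431, 1986 and 1948 FPKM after PBS (0.96 ± 0.10, adjusted p = 0.00117). H2-Eb1, a beta chain, had 1373, 1219 and 1560.3 FPKM after OMV-SIRP, against 792, 676 and 716 FPKM after PBS (0.92 ± 0.11, adjusted p = 0.00175). In all 3 genes every OMV-SIRP library lay above every PBS library, a condition of the rule that named Ciita. H2-Ab1 (0.94 ± 0.13), H2-Aa (0.81 ± 0.12), H2-DMb2 (0.95 ± 0.15), H2-DMa (0.84 ± 0.14) and H2-DMb1 (0.75 ± 0.14) rose by amounts close to one another. Ciita and H2-DMb2 kept their calls in 3 of the 6 fits that left out 1 library, H2-Aa in 4, H2-DMa in 2 and H2-DMb1 in 1, while Cd74, H2-Eb1 and H2-Ab1 kept theirs in all 6. H2-Eb2, H2-Oa and H2-Ob did not pass the test, with log2 changes of 0.64 ± 0.23, 0.72 ± 0.41 and 0.47 ± 0.21; the products of H2-Oa and H2-Ob restrain peptide exchange. Among genes outside the list, Ifi30, the lysosomal thiol reductase that prepares antigens for class II loading, had 507, 501 and 585 FPKM after OMV-SIRP, against 327, 294 and 289 FPKM after PBS (0.81 ± 0.10, adjusted p = 0.00322). It was chosen after its values were seen.

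Dendritic and B cells also express class II genes. Dendritic cell markers, 19 listed and none at 0, summed to 2354 to 2981 FPKM after OMV-SIRP and 1880.1 to 2332 FPKM after PBS, and 3 of the 19 rose. B cell markers, 14 listed and none at 0, summed to 314 to 438 FPKM after OMV-SIRP and 118 to 148 FPKM after PBS. Most of that sum after OMV-SIRP was the antibody light-chain gene Igkc, with 265, 213 and 328 FPKM, against 62.1, 47.3 and 50.7 FPKM after PBS. No other of the 11 B cell genes tested rose, and Cd79a, a B cell receptor chain, had a log2 change of 0.28 ± 0.28. The part of dendritic and B cells in the class II rise was not tested. The number of class II genes past the threshold was 4, 5 and 7 without OMV-SIRP 1, 2 and 3, and 7, 4 and 4 without PBS 1, 2 and 3. By contrast, of 19 MHC class I and peptide-loading genes only H2-Q6 passed, and it fell, with a log2 change of -0.64 ± 0.13 (SE, adjusted p = 0.0359), a call kept in 1 of the 6 fits without 1 library; the list median was -0.019.

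The largest rises among the protein-coding genes named by rule were those of Marco and Slpi. Marco (chr1:120474538-120505024 in GRCm38), a scavenger receptor that binds bacteria, had 7.53, 14.2 and 17.3 FPKM after OMV-SIRP, against 1.53, 0.832 and 0.367 FPKM after PBS, a log2 change of 2.85 ± 0.30 (SE, adjusted p = 0.00117). Slpi, a secreted inhibitor of serine proteases, had 13.01, 18.6 and 12.4 FPKM after OMV-SIRP, against 0.626, 1.07 and 2.61 FPKM after PBS (2.75 ± 0.31, adjusted p = 0.00136). Saa3, an inducible acute-phase protein, had 3.83, 3.98 and 8.25 FPKM after OMV-SIRP, against 0, 0.410 and 0.740 FPKM after PBS (2.17 ± 0.28, adjusted p = 0.00402). Acod1, which makes itaconate in activated macrophages, had 5.66, 6.22 and 5.15 FPKM after OMV-SIRP, against 0.169, 0.534 and 1.45 FPKM after PBS (2.03 ± 0.26, adjusted p = 0.00362). These 4 genes had at most 2.61 FPKM in any PBS library, and the lowest OMV-SIRP library exceeded the highest PBS library for each. That separation was a condition of the rule that named Marco and Slpi. All 4 stayed past the threshold with any 1 of the 6 libraries left out, but Saa3 missed it with limma voom on recovered reads (adjusted p = 0.0573).

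Ifitm1, an interferon-inducible membrane protein that restricts virus entry, had 79.4, 74.3 and 109 FPKM after OMV-SIRP, against 25.0, 34.2 and 27.3 FPKM after PBS (1.56 ± 0.17, adjusted p = 0.00136). Fgr, a Src-family kinase of myeloid cells, had 18.2, 19.9 and 18.1 FPKM after OMV-SIRP, against 5.98, 6.89 and 7.60 FPKM after PBS (1.34 ± 0.14, adjusted p = 0.00112). Kmo, an enzyme of the kynurenine pathway of tryptophan breakdown, had 11.5, 11.8 and 9.43 FPKM after OMV-SIRP, against 4.46, 3.50 and 4.75 FPKM after PBS (1.19 ± 0.17, adjusted p = 0.00587). Groups that did not overlap were a condition of the rule that named these genes. Each stayed past the threshold in all 6 fits that left out 1 library. Lyz1 (1.49 ± 0.30, adjusted p = 0.0422), a lysozyme, Ltb4r1 (1.48 ± 0.27, adjusted p = 0.0254), the leukotriene B4 receptor, and Spint1 (1.35 ± 0.23, adjusted p = 0.0158), an inhibitor of trypsin-like proteases, rose too, but kept their calls in 2, 1 and 1 of the 6. Lyz1 is a close copy of Lyz2, and the division of reads between such copies is uncertain.

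**Figure D2:**
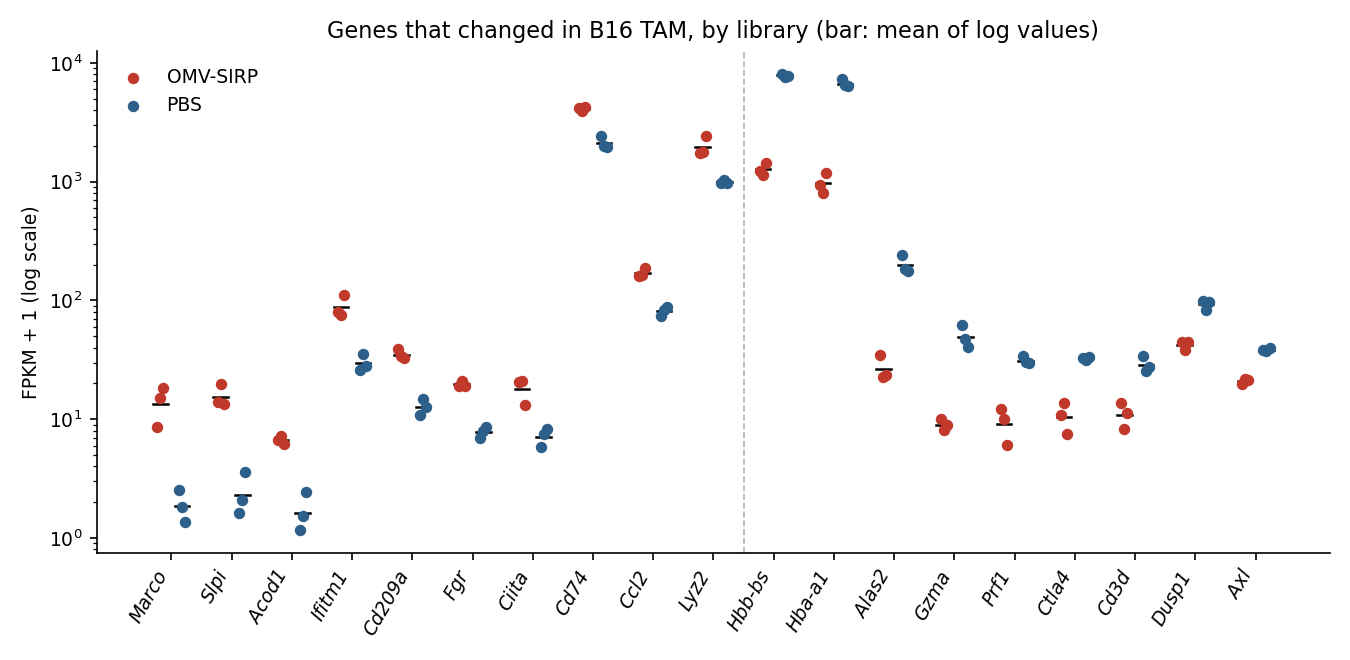
Expression of 19 genes (FPKM + 1, log axis) in each library, OMV-SIRP to the left of PBS for each gene, with a bar at the mean of the log values of 3 libraries. Genes left of the dashed line rose and genes right of it fell; Marco reached 17.3 FPKM after OMV-SIRP against at most 1.53 after PBS, and Hbb-bs at most 1439 FPKM after OMV-SIRP against at least 7635 after PBS.

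Within the macrophage markers 2 of 14 rose and none fell (list median 0.17), where 0.885% of all genes tested rose. Lyz2, the macrophage lysozyme, had 1741, 1781 and 2422 FPKM after OMV-SIRP, against 981, 1029 and 973 FPKM after PBS (0.98 ± 0.12, adjusted p = 0.0029). Itgam, which encodes CD11b, had 12.1, 11.3 and 12.6 FPKM after OMV-SIRP, against 6.10, 5.66 and 6.05 FPKM after PBS (0.91 ± 0.12, adjusted p = 0.0043). Csf1r, the receptor for macrophage colony-stimulating factor, had 74.3, 83.0 and 74.3 FPKM after OMV-SIRP, against 69.0, 67.5 and 63.0 FPKM after PBS, and did not pass (0.21 ± 0.09, adjusted p = 0.51). The groups did not overlap in any of these 3 genes, a separation that 7.88% of all genes tested showed upward. The 14 markers summed to 3606 to 4785 FPKM after OMV-SIRP and 2763 to 2865 FPKM after PBS. Lyz2 was the largest part of each sum, and 12 of the 14 markers did not pass. The sums therefore show no rise across the list.

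Among 12 CC chemokine genes tested, 4 rose and none fell, with a median log2 change of 0.63. Ccl2, the chief attractant of monocytes, had 158, 164 and 185 FPKM after OMV-SIRP, against 72.3, 81.7 and 87.0 FPKM after PBS (1.06 ± 0.11, adjusted p = 0.00117). Ccl7, its neighbour in the chemokine cluster of chromosome 11 and likewise a CCR2 ligand, had 172, 174 and 270.1 FPKM after OMV-SIRP, against 68.0, 95.4 and 102 FPKM after PBS (1.19 ± 0.21, adjusted p = 0.0183). Ccl6 (0.69 ± 0.10, adjusted p = 0.00823) and Ccl9 (0.81 ± 0.12, adjusted p = 0.00823), CCR1 ligands of mouse macrophages, were the other members that rose. Ccl8 and Ccl12 had log2 changes of 0.60 ± 0.18 and 0.66 ± 0.16 and did not pass, and the T cell attractant Ccl5 had -0.46 ± 0.10 (adjusted p = 0.0521). The count of 4 was 2 without PBS replicate 2, where Ccl7 and Ccl9 lost their calls, and 2 in a fit of the 6 libraries alone; Ccl7 also lost its call without PBS 1. Of 7 CXC chemokines, the neutrophil attractant Cxcl1 fell (-1.13 ± 0.22, adjusted p = 0.0357) and none rose, though Cxcl1 lost its call in each of the 6 fits without 1 library.

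Genes of both conventional macrophage programmes appeared among the rises. Of 17 alternative-activation genes tested, 5 rose and none fell (median 0.42). Mgl2, a lectin for galactose and N-acetylgalactosamine, had 30.8, 31.0 and 37.7 FPKM after OMV-SIRP, against 16.05, 12.8 and 13.9 FPKM after PBS (1.16 ± 0.16, adjusted p = 0.00543). Mrc1, the mannose receptor CD206, had 44.0, 46.6 and 39.9 FPKM after OMV-SIRP, against 21.6, 29.2 and 29.0 FPKM after PBS (0.70 ± 0.13, adjusted p = 0.0293). Both genes separated the groups. Clec10a (1.09 ± 0.22, adjusted p = 0.0449), the paralogue of Mgl2, F13a1 (0.89 ± 0.15, adjusted p = 0.0147), a transglutaminase of clotting, and Il4ra (0.59 ± 0.12, adjusted p = 0.044), the receptor for interleukin 4, completed the 5. The count of 5 depended on single libraries: it was 1, 3 and 4 without OMV-SIRP 1, 2 and 3, then 3, 1 and 2 without PBS 1, 2 and 3, and 1 in a fit of the 6 libraries alone. Mgl2 kept its call in all 6 fits without 1 library, F13a1 in 4, and Mrc1, Clec10a and Il4ra in 1 each.

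Of 15 classical inflammatory genes tested, Acod1 and Il1b rose and none fell (median 0.24). Il1b, which encodes interleukin 1 beta, had 16.4, 19.0 and 19.6 FPKM after OMV-SIRP, against 9.49, 7.42 and 7.18 FPKM after PBS (1.10 ± 0.19, adjusted p = 0.0183). Nos2, inducible nitric oxide synthase, stayed low, with 0.732, 1.35 and 1.72 FPKM after OMV-SIRP, against 1.57, 2.98 and 2.36 FPKM after PBS (-0.54 ± 0.29, adjusted p = 0.628). Il1b kept its call in 1 of the 6 fits without 1 library and lost it without OMV-SIRP 3, while Acod1 kept its call in all 6. Il1b separated the groups while Nos2 overlapped between them. Cd86, a costimulatory ligand, had 10.9, 10.1 and 9.78 FPKM after OMV-SIRP, against 8.57, 8.22 and 8.90 FPKM after PBS (0.23 ± 0.14, adjusted p = 0.666). Arg1, arginase, had 48.4, 52.5 and 70.1 FPKM after OMV-SIRP, against 29.8, 41.2 and 41.0 FPKM after PBS (0.59 ± 0.17, adjusted p = 0.196). Neither passed the test although their groups did not overlap, a separation that 7.88% of all genes tested showed upward and 8.75% downward.

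Sirpa and Cd47, the receptor and ligand of the phagocytosis checkpoint, did not pass the test. Sirpa had 103, 101 and 109 FPKM after OMV-SIRP, against 76.6, 92.4 and 99.0 FPKM after PBS (0.23 ± 0.11, adjusted p = 0.583). Cd47 had 18.8, 16.1 and 20.4 FPKM after OMV-SIRP, against 15.4, 22.6 and 20.1 FPKM after PBS (-0.058 ± 0.16, adjusted p = 0.962). The PBS libraries spread more widely than the OMV-SIRP libraries in both genes, and Cd47 overlapped between groups. Of 21 genes of this axis and of myeloid inhibitory receptors, 1 rose (median 0.38): Pirb, an inhibitory receptor for MHC class I, with a log2 change of 0.75 ± 0.12 (SE, adjusted p = 0.0123), kept in 3 of the 6 fits without 1 library. None of 22 Toll-like receptor and lipopolysaccharide-sensing genes passed; Tlr4 had 0.49 ± 0.27 (adjusted p = 0.633), and Tlr2, the lipoprotein receptor, had 17.9, 16.5 and 14.9 FPKM after OMV-SIRP, against 9.43, 10.5 and 10.6 FPKM after PBS (0.64 ± 0.14, adjusted p = 0.0718). Cd274, which encodes PD-L1, had a log2 change of -0.13 ± 0.15 (adjusted p = 0.871), and none of 16 costimulatory and coinhibitory ligand genes passed.

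Of 19 dendritic cell markers, 3 rose and none fell (median 0.40). Cd209a, a DC-SIGN lectin of dendritic cells and some macrophages, had 37.7, 32.9 and 31.4 FPKM after OMV-SIRP, against 9.80, 13.7 and 11.7 FPKM after PBS (1.47 ± 0.16, adjusted p = 0.00136). Naaa, a lysosomal amidase, had 107, 104 and 104 FPKM after OMV-SIRP, against 48.6, 59.7 and 55.6 FPKM after PBS (0.93 ± 0.11, adjusted p = 0.0023). Snx22, a sorting nexin, rose by 1.15 ± 0.21 on the log2 scale (adjusted p = 0.0251) but lost its call in each fit without 1 library. Cd209a and Naaa kept theirs in all 6. Both platelet genes tested, of 10 listed, rose: Ppbp (1.35 ± 0.24, adjusted p = 0.0205) and Pf4 (1.07 ± 0.20, adjusted p = 0.0251), chemokines of platelet granules, with Pf4 at 265, 247 and 438 FPKM after OMV-SIRP, against 127, 156 and 157 FPKM after PBS. Ppbp kept its call in 1 of the 6 fits without 1 library and missed the threshold with limma voom on recovered reads (adjusted p = 0.303), and Pf4 kept its call in 2; without OMV-SIRP 3 only Pf4 passed. The other listed platelet genes did not reach 1 FPKM in 3 of the 9 libraries and were not tested. Gp1bb, a platelet surface glycoprotein, was at 0 in all 6 libraries. The 10 genes summed to 259 to 450 FPKM after OMV-SIRP and 130 to 162 FPKM after PBS. Most of each sum was Pf4, so the sums show no rise across the list.

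Smaller numbers of genes rose in other myeloid lists. Of 18 Fc gamma receptor and signalling genes, Fgr and Ncf1, a subunit of the phagocyte NADPH oxidase (0.73 ± 0.12, adjusted p = 0.0133), rose and none fell, with a median of 0.31. Of 19 scavenger and efferocytosis genes, Marco and the lectin Clec4n (0.98 ± 0.17, adjusted p = 0.0183) rose, while Axl, a receptor for dying cells, fell. Axl had 18.8, 20.8 and 20.5 FPKM after OMV-SIRP, against 37.1, 36.8 and 38.5 FPKM after PBS (-0.87 ± 0.11, adjusted p = 0.0023). The 2 groups of Axl values were narrow and far apart. Spp1, osteopontin, the 1 of 18 lipid-associated macrophage genes to pass, had 258, 270.5 and 332 FPKM after OMV-SIRP, against 140.2, 143 and 149 FPKM after PBS (0.98 ± 0.11, adjusted p = 0.00136). Single rises were those of the complement regulator Cfp (0.94 ± 0.14, adjusted p = 0.00823) of 12, the haem oxygenase Hmox1 (0.57 ± 0.10, adjusted p = 0.017) of 16 iron and NRF2 genes, the cytokine receptor Csf2rb (0.68 ± 0.11, adjusted p = 0.0134) of 15 and the metalloproteinase Mmp14 (0.58 ± 0.12, adjusted p = 0.0421) of 13. Of these, Mmp14 lost its call in each of the 6 fits without 1 library, Hmox1 and Csf2rb kept theirs in 2, Cfp in 5, Ncf1 in 3 and Clec4n in 1. In the monocyte list of 14, the matrix gene Fn1 rose (0.99 ± 0.19, adjusted p = 0.0293) and Ly6c2, the surface antigen of classical monocytes, fell (-1.01 ± 0.19, adjusted p = 0.027). Fn1 kept its call in 2 of the 6 fits without 1 library and Ly6c2 in 1, and Ly6c2 missed the threshold with voom (adjusted p = 0.129).

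The 5 largest falls among the protein-coding genes named by rule were all of red cell genes. All 5 erythroid genes tested, of 10 listed, fell, with a median log2 change of -2.64, and all 5 did so under every alternative setting tried. Hbb-bs, an adult beta-globin gene, had 1236, 1143 and 1439 FPKM after OMV-SIRP, against 8121, 7635 and 7733 FPKM after PBS, a log2 change of -2.63 ± 0.10 (SE, adjusted p = 7.59e-07). Hba-a1, an alpha-globin gene, had 944, 799 and 1191 FPKM after OMV-SIRP, against 7273, 6448 and 6369 FPKM after PBS (-2.79 ± 0.13, adjusted p = 3.75e-06). Alas2, the first enzyme of haem synthesis in red cell precursors, had 33.5, 21.8 and 22.7 FPKM after OMV-SIRP, against 241, 182 and 177 FPKM after PBS (-2.91 ± 0.18, adjusted p = 2.2e-05). Replicates of a group lay close together and the groups far apart, though separate groups were a condition of the naming rule. Hba-a2 and Hbb-bt, close copies of the other globin genes whose reads are hard to divide between copies, fell by 2.64 ± 0.21 and 2.51 ± 0.31. Haemoglobin reads were 0.177% to 0.232% of all assigned reads after OMV-SIRP and 1.31% to 1.42% after PBS, and Bpgm, a red cell enzyme that makes the bisphosphoglycerate that regulates haemoglobin, also fell (-1.29 ± 0.22, adjusted p = 0.0149), a call kept in 1 of the 6 fits without 1 library.

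The upstream sequences of a beta- and an alpha-globin gene are given as examples from the 5 genes that fell, which lie on chromosomes 7, 11 and X. Why these genes fell was not tested. Capitals mark GATAAG, a motif read by GATA1, and CCACACCC, the CACCC element read by KLF1, both searched on both strands. The windows are 250 bases before the RefSeq start in GRCm38.p6, 5′ to 3′ on the strand of the gene, at chr7:103827929-103828178 on the minus strand for Hbb-bs and chr11:32283422-32283671 on the plus strand for Hba-a1.
Hbb-bs: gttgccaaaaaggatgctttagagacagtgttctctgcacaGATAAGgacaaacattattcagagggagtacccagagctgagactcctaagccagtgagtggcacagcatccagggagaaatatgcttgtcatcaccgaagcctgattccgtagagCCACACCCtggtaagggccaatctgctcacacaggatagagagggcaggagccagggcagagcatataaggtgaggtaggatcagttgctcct
Hba-a1: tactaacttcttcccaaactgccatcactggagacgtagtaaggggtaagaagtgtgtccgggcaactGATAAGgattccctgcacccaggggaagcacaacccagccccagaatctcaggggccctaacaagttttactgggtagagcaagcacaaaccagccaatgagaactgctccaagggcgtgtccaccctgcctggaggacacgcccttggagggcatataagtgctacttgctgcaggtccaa
The GATA motif lay 209 to 204 bases before the start of Hbb-bs and 182 to 177 before that of Hba-a1, and the CACCC element 93 to 86 before that of Hbb-bs. Of 7 listed erythroid genes with a window, 6 held GATAAG, held by 6.55% of all windows, and 1 held CCACACCC, held by 3.2%. The 6 included Epb42 and Klf1, which were not tested, while Alas2, which fell, did not hold GATAAG. A match is a description of the letters and not of a bound site.

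Many T cell and cytotoxic lymphocyte genes fell. Of 23 T cell genes tested, 12 fell and none rose (median -1.06), and of 16 natural killer and cytotoxic genes, 6 fell and none rose (median -1.48), against a background of 0.566% of genes that fell. Ctla4, an inhibitory receptor of activated and regulatory T cells, had 9.76, 12.6 and 6.56 FPKM after OMV-SIRP, against 31.7, 30.5 and 32.5 FPKM after PBS (-1.65 ± 0.21, adjusted p = 0.00322). Cd3d, a chain of the T cell receptor complex, had 12.7, 7.21 and 10.4 FPKM after OMV-SIRP, against 33.1, 24.3 and 26.8 FPKM after PBS (-1.41 ± 0.20, adjusted p = 0.00587). Il2rb, the interleukin 2 receptor beta chain of T and natural killer cells, had 17.9, 17.9 and 14.5 FPKM after OMV-SIRP, against 53.7, 50.5 and 51.4 FPKM after PBS (-1.58 ± 0.15, adjusted p = 0.000516). No OMV-SIRP library reached the lowest PBS library in these genes, which the naming rule required of Ctla4 and Il2rb. Gimap4, a lymphocyte GTPase, fell by 1.96 ± 0.22 (adjusted p = 0.00136), and the chemokine receptor Ccr8 by 1.54 ± 0.31 (adjusted p = 0.0419), which kept its call in 1 of the 6 fits without 1 library. Further falls in the list included those of Cd3e, Cd3g, Cd2, Cd8a, Cd8b1, Trac, Lck, Zap70 and Lag3, with log2 changes of -0.94 (Lag3) or lower; of these Cd2 kept its call in none of the 6 fits, Cd3e, Cd8a and Lck in 1, Cd8b1 in 2 and Trac in 5. Cd4 (-0.72 ± 0.20, adjusted p = 0.156), Foxp3 (-1.02 ± 0.31, adjusted p = 0.22) and Trbc2 (-1.17 ± 0.26, adjusted p = 0.0755) did not pass.

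Among the molecules of killing, Gzma (chr13:113093825-113100981), a granzyme, had 9.06, 7.15 and 7.86 FPKM after OMV-SIRP, against 61.4, 46.4 and 39.5 FPKM after PBS (-2.46 ± 0.26, adjusted p = 0.00117). Gzmb, the granzyme that starts apoptosis in target cells, had 17.6, 24.5 and 23.1 FPKM after OMV-SIRP, against 60.4, 62.7 and 72.2 FPKM after PBS (-1.55 ± 0.14, adjusted p = 0.000444). Prf1, the pore-forming perforin, had 11.1, 8.98 and 5.09 FPKM after OMV-SIRP, against 32.7, 29.1 and 28.7 FPKM after PBS (-1.79 ± 0.25, adjusted p = 0.00555). Complete separation was a condition of the rule that named all 3, and each kept its call with any 1 library left out. Nkg7, a granule membrane protein, had 45.6, 29.9 and 46.6 FPKM after OMV-SIRP, against 143, 103 and 102 FPKM after PBS (adjusted p = 0.00823). Ncr1, the natural killer receptor NKp46, had 0.419, 0 and 0.0959 FPKM after OMV-SIRP, against 5.47, 2.69 and 2.04 FPKM after PBS, and lost its call in each of the 6 fits without 1 library. Ctsw, a cathepsin of cytotoxic cells, had 3.00, 2.58 and 9.55 FPKM after OMV-SIRP, against 28.2, 17.96 and 16.6 FPKM after PBS (adjusted p = 0.044), and kept its call in 1 of the 6 fits without 1 library. The natural killer receptor Klra8, named after its values were seen, was at 0 in 2 OMV-SIRP libraries and had 0.853 FPKM in the other, against 6.90, 6.23 and 4.42 FPKM after PBS. Ncr1 and Klra8 met the filter on low values (at least 1 FPKM in 3 of 9 libraries) through the PBS libraries alone and so had to differ, and they are given as levels only. Without Ncr1 and Klre1, the other listed gene of that kind, 5 of 14 cytotoxic genes fell (median -1.48).

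Summed over their lists, T cell genes came to 239 to 296 FPKM after OMV-SIRP and 559 to 695 FPKM after PBS, and natural killer and cytotoxic genes to 110.4 to 136 FPKM after OMV-SIRP and 325 to 397 FPKM after PBS. T cell receptor variable segments summed to 30.7, 21.0 and 31.8 FPKM after OMV-SIRP, against 113, 98.3 and 99.3 FPKM after PBS. The number of T cell genes that fell was 8, 6 and 10 without OMV-SIRP 1, 2 and 3 and 5, 8 and 6 without PBS 1, 2 and 3. For the cytotoxic list it was 4 or 5 without any 1 library.

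Several antibody constant-region genes rose. Ighg2c (chr12:113285325-113288932), the constant region of a mouse IgG2 subclass, had 119, 121 and 136 FPKM after OMV-SIRP, against 0, 0.755 and 0 FPKM after PBS (adjusted p = 1.24e-05). Ighg2b had 38.8, 40.5 and 44.6 FPKM after OMV-SIRP, against 0, 0.598 and 0.288 FPKM after PBS (5.05 ± 0.23, adjusted p = 3.26e-06). Igkc, the kappa light-chain constant region, had 265, 213 and 328 FPKM after OMV-SIRP, against 62.1, 47.3 and 50.7 FPKM after PBS (2.30 ± 0.31, adjusted p = 0.00636). The groups lay far apart for all 3, and each call held with any 1 library left out. Ighg3 had 3.97, 2.91 and 2.82 FPKM after OMV-SIRP and was at 0 in all PBS libraries, and Iglc1, a lambda constant region, rose by 1.42 ± 0.27 on the log2 scale (adjusted p = 0.0292). Ighg3 met the filter through the OMV-SIRP libraries alone and so had to differ. Iglc1 kept its call in 1 of the 6 fits without 1 library and missed the threshold with voom (adjusted p = 0.334). Ighm, the IgM constant region, had 56.5, 57.0 and 61.1 FPKM after OMV-SIRP, against 46.6, 33.5 and 42.6 FPKM after PBS, and did not pass (0.51 ± 0.13, adjusted p = 0.113). Igkc belonged to the B cell list, while the other antibody genes were chosen after their values were seen.

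Summed over the 218 immunoglobulin variable segments in the table, expression was 437, 506 and 367 FPKM after OMV-SIRP, against 90.6, 86.5 and 72.5 FPKM after PBS. The segments with at least 1 FPKM numbered 56, 53 and 56 after OMV-SIRP, against 11, 19 and 18 after PBS. Segments that passed the filter only through the OMV-SIRP libraries had to differ, so no count of called segments is given. Igkv1-135 had 22.2, 22.2 and 17.8 FPKM after OMV-SIRP, against 0, 0 and 0.652 FPKM after PBS. Ighv5-9-1 ran the other way, at 0 in all OMV-SIRP libraries and 17.0, 3.39 and 10.9 FPKM after PBS. That segment met the filter through the PBS libraries alone and so had to differ. Cd79a, a signalling chain of the B cell receptor, had 9.45, 6.98 and 10.7 FPKM after OMV-SIRP, against 6.08, 7.24 and 8.33 FPKM after PBS and did not pass (0.28 ± 0.28, adjusted p = 0.843). Jchain, the joining chain that antibody-secreting cells make, had 7.04, 4.20 and 7.22 FPKM after OMV-SIRP, against 1.91, 2.84 and 2.27 FPKM after PBS (1.08 ± 0.33, adjusted p = 0.226). Of 11 B cell genes tested, Igkc alone rose and none fell (median 0.41).

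**Figure D3:**
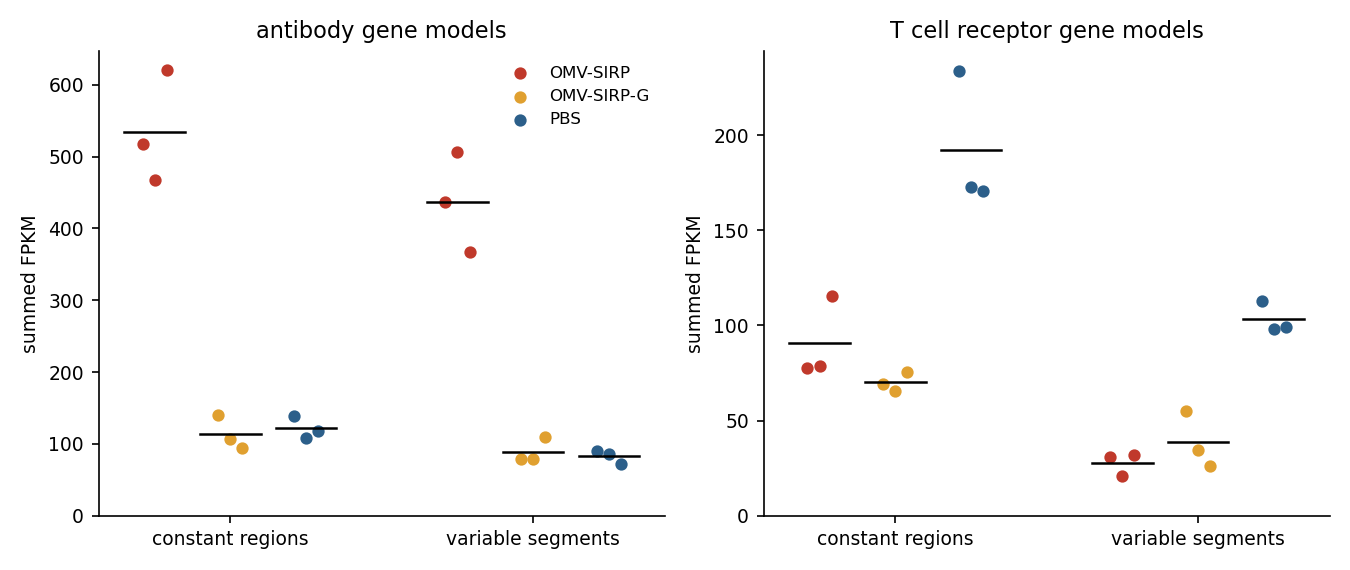
Summed FPKM of immunoglobulin (IG) and T cell receptor (TR) constant and variable gene segments in each library of OMV-SIRP, OMV-SIRP-G and PBS, each point a library. Immunoglobulin constant segments summed to 467 to 620.0 FPKM after OMV-SIRP, 94.6 to 141 after OMV-SIRP-G and 109 to 138 after PBS, while T cell receptor constant segments summed to 77.5 to 115 after OMV-SIRP, 65.7 to 75.6 after OMV-SIRP-G and 171 to 234 after PBS.

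Dusp1, Dusp2 and Nfkbia, which limit kinase and NF-kB signalling, fell. Dusp1, a phosphatase that switches off p38 and JNK kinases, had 43.3, 37.0 and 43.3 FPKM after OMV-SIRP, against 97.4, 82.5 and 96.3 FPKM after PBS (-1.14 ± 0.11, adjusted p = 0.000728). Dusp2, a related phosphatase of leukocytes, had 20.6, 17.8 and 14.3 FPKM after OMV-SIRP, against 53.9, 35.3 and 39.0 FPKM after PBS (-1.22 ± 0.19, adjusted p = 0.00898). Nfkbia, the inhibitor of NF-kB that NF-kB itself induces, had 64.5, 56.3 and 61.6 FPKM after OMV-SIRP, against 115, 92.8 and 102 FPKM after PBS (-0.75 ± 0.12, adjusted p = 0.011), a call lost without PBS 3. The groups did not overlap for these genes. Dusp1 and Dusp2 were the 2 of 22 immediate-early genes that passed (median -0.24), and Nfkbia and Saa3 the 2 of 21 NF-kB target and feedback genes, in opposite directions. Txnip, an inhibitor of thioredoxin, fell by 1.08 ± 0.12 (adjusted p = 0.00136) and Vcam1, an adhesion molecule, by 1.29 ± 0.17 (adjusted p = 0.0043); both were chosen after their values were seen. Thy1 fell by 0.87 ± 0.12 (adjusted p = 0.00532); it stood in the fibroblast list of 12 but also marks mouse T cells.

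None of the 13 protein-coding mitochondrial genes passed (median 0.21). Of the other mitochondrial genes tested, 1 of 2 ribosomal RNAs and 3 of 16 transfer RNAs fell, and none rose. The ribosomal RNA mt-Rnr2 had 1402, 1287 and 1225 FPKM after OMV-SIRP, against 2151, 2416 and 2074 FPKM after PBS (-0.76 ± 0.10, adjusted p = 0.00322). The transfer RNA mt-Tl1 had 304, 279 and 205 FPKM after OMV-SIRP, against 699, 910.2 and 804 FPKM after PBS (-1.62 ± 0.21, adjusted p = 0.0043). Both separated the groups, and both were chosen after their values were seen. The 2 models adjoin, at bases 1094 to 2675 for mt-Rnr2 and 2676 to 2750 for mt-Tl1. Whether their falls are separate was not tested. Mitochondrial reads made up 18.5% to 21.3% of assigned reads after OMV-SIRP and 15.2% to 19.7% after PBS.

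Few genes of the other lists passed. Of 28 interferon-stimulated genes, Irf9, a subunit of the interferon-activated factor ISGF3, rose (0.70 ± 0.14, adjusted p = 0.0317; median 0.051) but lost its call in each of the 6 fits without 1 library, and of 19 interferon gamma response genes only Ciita did (median -0.019). Il1b was the 1 member to pass of 13 interleukin 1 family and inflammasome genes. Cdh1, which encodes E-cadherin, rose among 5 keratinocyte and epithelial genes (0.91 ± 0.17, adjusted p = 0.0293), and likewise lost its call in each of the 6 fits; it missed the threshold with voom too (adjusted p = 0.0583). No member passed in the lists for chemokine receptors (10 tested), glycolysis (18), hypoxia and angiogenesis (18), oxidative phosphorylation (24), cholesterol and fatty acid synthesis (22), the cell cycle (25), heat-shock chaperones (14), the ATF4 amino acid response (13), arginine and amine metabolism (14), myeloid transcription factors (22) or ribosomal proteins (29). The same was true of markers of neutrophils (8 tested), eosinophils, mast cells and basophils (6), endothelium (5), and skeletal muscle and adipocytes (1). Of the neutrophil markers, Ly6g, Ngp, Mpo, Elane and Stfa2l1 were at 0 in all 6 libraries. Ear2, an eosinophil ribonuclease that macrophages also make, had 14.5, 14.1 and 28.3 FPKM after OMV-SIRP, against 0, 8.91 and 3.75 FPKM after PBS, and did not pass (adjusted p = 0.324).

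**Figure D4:**
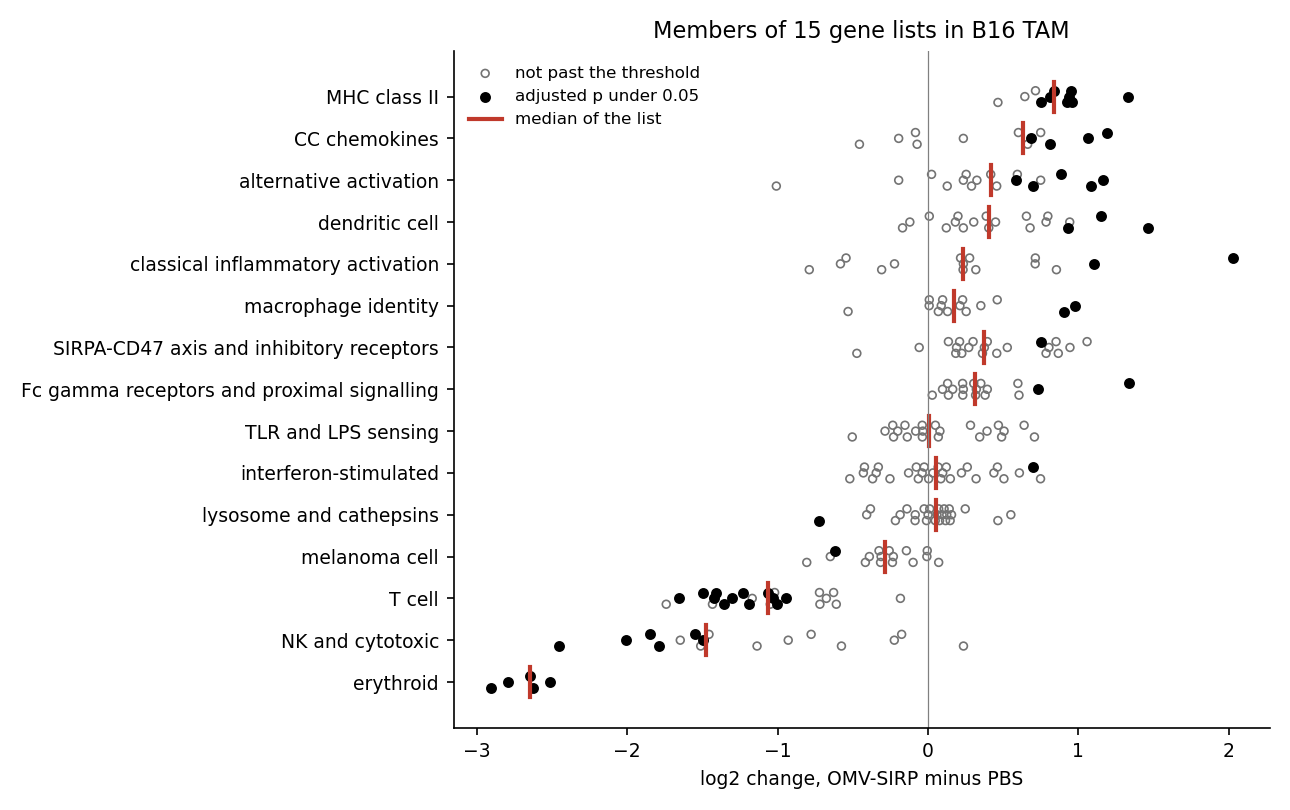
Log2 change of OMV-SIRP over PBS for each tested member of 15 gene lists, 1 list a line, filled where the adjusted p was under 0.05 and open otherwise, with a red mark at the median of the list. All 11 MHC class II members lie above 0 (8 filled), and all 23 T cell members (12 filled) and all 5 erythroid members (5 filled) lie below it.

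OMV-SIRP-G shared the PBS libraries with the main comparison, so the levels are set side by side and the direct difference between both agents was tested in the same fit. In that test 5.62% of genes were higher after OMV-SIRP than after OMV-SIRP-G and 6.35% lower. Of the 111 genes higher after OMV-SIRP than after PBS, 47 were also higher than after OMV-SIRP-G, 30 were lower and 34 gave no call. The 111 and the 47 include immunoglobulin segments, such as Igkv1-135, that met the filter through the OMV-SIRP libraries alone. Those segments had to differ from both other groups. Of the 71 lower genes, 5 were higher than after OMV-SIRP-G, 14 were lower and 52 gave no call.

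Class II and antibody genes stood higher after OMV-SIRP than after OMV-SIRP-G. Of the 11 class II genes 8 were higher and none lower, with a median difference of 0.84 on the log2 scale. These were not the same 8 that rose against PBS. H2-DMa (adjusted p = 0.0510) and H2-DMb1 (adjusted p = 0.0651) did not pass against OMV-SIRP-G. H2-Eb2 (adjusted p = 0.0288) and H2-Ob (adjusted p = 0.0139), which had not passed against PBS, did. No class II gene passed between OMV-SIRP-G and PBS, where 7.83% of all genes were higher and 7.28% lower. H2-Eb1 had 1373, 1219 and 1560.3 FPKM after OMV-SIRP, 762, 771 and 769 FPKM after OMV-SIRP-G and 792, 676 and 716 FPKM after PBS (0.84 ± 0.11 against OMV-SIRP-G, adjusted p = 0.000874). Ighg2c had 119, 121 and 136 FPKM after OMV-SIRP, 3.87, 9.21 and 12.8 FPKM after OMV-SIRP-G and 0, 0.755 and 0 FPKM after PBS (3.84 ± 0.35, adjusted p = 0.000234). Dusp1 had 43.3, 37.0 and 43.3 FPKM after OMV-SIRP, 87.5, 82.7 and 81.6 FPKM after OMV-SIRP-G and 97.4, 82.5 and 96.3 FPKM after PBS (-1.01 ± 0.11, adjusted p = 0.000393). OMV-SIRP libraries lay outside the range of both other groups in these genes. Cd209a (1.59 ± 0.16, adjusted p = 0.000278), Ifitm1 (1.08 ± 0.17, adjusted p = 0.00307), Kmo (1.03 ± 0.17, adjusted p = 0.00342) and Mgl2 (1.00 ± 0.16, adjusted p = 0.00328) were higher than after OMV-SIRP-G too, and Axl was lower (-0.85 ± 0.11, adjusted p = 0.000789).

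Most CC chemokine and macrophage marker genes were lower after OMV-SIRP than after OMV-SIRP-G. Of 12 CC chemokines 8 were lower and 1 higher, and of 7 CXC chemokines 3 were lower and none higher. The exception was Ccl22, a CCR4 ligand, with 72.7, 69.1 and 70.6 FPKM after OMV-SIRP, 22.5, 24.7 and 27.0 FPKM after OMV-SIRP-G and 66.0, 59.1 and 55.3 FPKM after PBS. Ccl2 had 158, 164 and 185 FPKM after OMV-SIRP, 335, 338 and 391 FPKM after OMV-SIRP-G and 72.3, 81.7 and 87.0 FPKM after PBS (-1.06 ± 0.11 against OMV-SIRP-G, adjusted p = 0.000342). Mrc1 had 44.0, 46.6 and 39.9 FPKM after OMV-SIRP, 131, 131 and 119 FPKM after OMV-SIRP-G and 21.6, 29.2 and 29.0 FPKM after PBS (-1.53 ± 0.13, adjusted p = 0.000147). Lyz2 had 1741, 1781 and 2422 FPKM after OMV-SIRP, 4267, 4461 and 4360.3 FPKM after OMV-SIRP-G and 981, 1029 and 973 FPKM after PBS (-1.16 ± 0.12, adjusted p = 0.000325). OMV-SIRP lay between the other groups for each. Sirpa, Arg1 and Nos2, which did not pass against PBS, were lower after OMV-SIRP than after OMV-SIRP-G (-0.95 ± 0.11, -1.42 ± 0.17 and -1.92 ± 0.29). Of 14 macrophage markers 12 were lower after OMV-SIRP than after OMV-SIRP-G and none higher, and of 16 melanoma genes 14 were higher and none lower. Summed melanoma expression was 3027 to 3310 FPKM after OMV-SIRP, 1310.3 to 1435 FPKM after OMV-SIRP-G and 3681 to 3968 FPKM after PBS. The part of this difference in cell makeup in the gene differences between the agents was not tested.

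Most red cell and cytotoxic genes gave no call between the agents: 1 of 5 erythroid genes did and none of 16 cytotoxic genes did. Alas2 had 33.5, 21.8 and 22.7 FPKM after OMV-SIRP, 23.2, 28.3 and 27.2 FPKM after OMV-SIRP-G and 241, 182 and 177 FPKM after PBS, and the difference between the agents was -0.03 ± 0.18 on the log2 scale (adjusted p = 0.934). Gzmb had 17.6, 24.5 and 23.1 FPKM after OMV-SIRP, 25.3, 24.1 and 23.2 FPKM after OMV-SIRP-G and 60.4, 62.7 and 72.2 FPKM after PBS (-0.16 ± 0.14, adjusted p = 0.533). The OMV-SIRP and OMV-SIRP-G groups overlapped in both genes. Hbb-bs was the erythroid exception, lower after OMV-SIRP than after OMV-SIRP-G (1236, 1143 and 1439 FPKM after OMV-SIRP and 1595, 1614 and 1670.4 FPKM after OMV-SIRP-G; -0.36 ± 0.10, adjusted p = 0.0366). Marco (-0.79 ± 0.30, adjusted p = 0.133), Slpi (0.73 ± 0.31, adjusted p = 0.161) and Fgr (-0.07 ± 0.14, adjusted p = 0.792) gave no call between the agents.

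**Figure D5:**
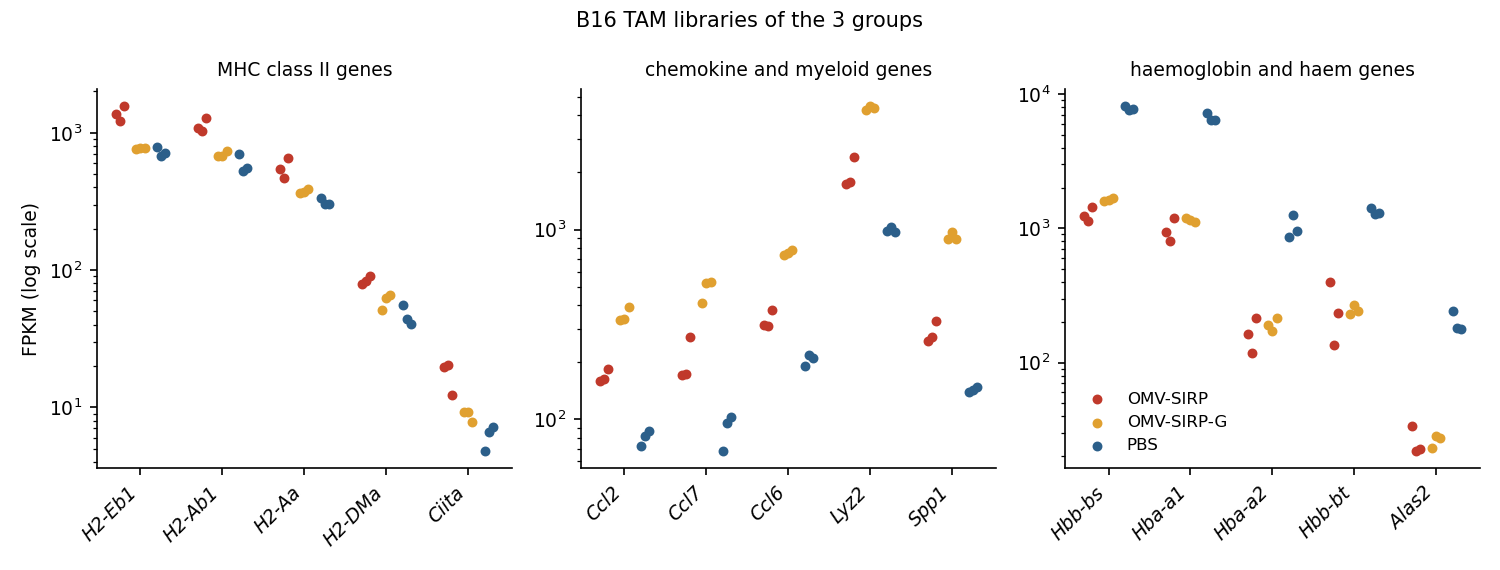
Expression (FPKM, log axis) in each library of OMV-SIRP, OMV-SIRP-G and PBS for MHC class II genes, chemokine and myeloid genes, and haemoglobin and haem genes, each point a library. OMV-SIRP is the highest group in the class II panel, lies between the others for genes such as Ccl2, and lies near OMV-SIRP-G and below PBS for genes such as Alas2.

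The same treatments were measured in TAM from MC38 tumours, a mouse colon carcinoma line. That table was scaled separately, so its values stand beside those of B16 with no test across them. Macrophage genes were scarce in the MC38 PBS libraries. In MC38 TAM, Cd68 had 143 to 245 FPKM after OMV-SIRP and 15.2 to 41.4 FPKM after PBS. Lyz2 had 1055 to 3924 FPKM after OMV-SIRP in MC38 TAM and 75.6 to 175 FPKM after PBS, against 1741 to 2422 FPKM after OMV-SIRP and 973 to 1029 FPKM after PBS in B16 TAM. Of the 111 genes that rose in B16 TAM, 86 were tested in MC38 TAM, where 53 were higher (61.6%, against 7.4% of all genes tested there) and 1 was lower. Of the 71 that fell in B16 TAM, 64 were tested, of which 15 were higher (23.4%) and 1 was lower, against 3.49% of all genes lower there. H2-Eb1 was higher in MC38 TAM by 4.75 ± 0.37 and in B16 TAM by 0.92 ± 0.11. Hbb-bs had a log2 change of 0.61 ± 0.46 in MC38 TAM (adjusted p = 0.418), beside its fall of -2.63 ± 0.10 in B16 TAM. Igkc was higher in both, by 3.39 ± 0.51 in MC38 TAM and 2.30 ± 0.31 in B16 TAM. How far the low macrophage content of the MC38 PBS libraries sets the MC38 changes was not tested.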

How the data were processed

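Per the labels' protocols, RNA came from TRIzol lysates and libraries from a NEBNext messenger RNA kit. The authors deposited FPKM for 56575 gene models of the B16 table. The submitters' processing notes name the build GRCm38 and, as tools, featureCounts 1.5.0-p3, HISAT2 2.0.5 and StringTie, with roles not given in the sources used here. Whether counting used strand is not stated, so overlapping and antisense genes cannot be told apart, and reads of near-identical copies are divided uncertainly. FPKM times gene length gave whole reads for 100% of values (tolerance 0.05 reads), which gave each library's depth.

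Values were tested on log2(FPKM + 1), which understates changes of low genes, with limma 3.58.1 (lmFit, then eBayes with trend and robust; statmod 1.5.0, R 4.3.3). All 9 B16 TAM libraries were fitted together, for genes with at least 1 FPKM in at least 3 of them. P-values were adjusted by Benjamini-Hochberg over all genes tested, at 0.05, and changes are log2 differences ± SE. In the text, values in brackets after a gene are the log2 change and its SE. MC38 TAM libraries were fitted separately in the same way. The code was tested on simulated data.

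Named genes were the 12 largest and 12 smallest changes among called protein-coding genes with a mean of at least 5 FPKM and groups that did not overlap, from every list the members of lowest adjusted p (at most 4), and Sirpa, Cd47, Arg1, Nos2, Mrc1, Cd86, Cd274, Tlr4 and Tlr2. Further members of the class II, T cell, chemokine and alternative-activation lists and genes outside the rule were chosen after their values were seen. Of the genes so named, a few are not reported here. The members and the gene lists were chosen with earlier results of these data known. Promoter sequences are RefSeq windows in GRCm38.p6. Replicate numbers are shared by the groups, but the deviations of same-numbered libraries correlated at 0.0779, 0.0223 and 0.0585, so they were not treated as pairs. Every pair of replicates differed by more than sampling noise. Alternatives were a pseudocount of 0.1, no filter, scaling to total reads, a fit of the 6 libraries alone, replicate number as a block, limma voom on the recovered reads, a 2-fold minimum, and leaving out each library in turn.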

Additional observations from a re-analysis of the deposited data

Results flagged for a closer look

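Some genes that passed the test in B16 TAM had changes of the opposite sign in MC38 TAM in every library, and the difference between the tumours was not tested because the tables were scaled separately. Some lymphocyte genes that were lower after OMV-SIRP in B16 TAM had positive log2 changes in MC38 TAM: Gzma 4.48, Klra8 2.81, Gzmb 1.93, Ccr8 1.88, Ncr1 1.86, Ctsw 1.83, Prf1 1.44, Lag3 1.44, Thy1 1.10, Zap70 0.65 and Lck 0.58. Of these, Prf1, Ncr1, Thy1, Zap70 and Lck did not pass in MC38 TAM, and the Lck groups nearly met (18.0583 and 18.0565 FPKM). Other T cell genes that fell in B16 TAM did not show this. Cd3g (-0.31), Cd8b1 (-0.27), Cd3e (-0.15) and Cd2 (-0.03) had negative changes in MC38 TAM, and Cd3d (0.34) and Trac (0.35) overlapped between groups. Outside the lymphocyte genes, Dusp1 (2.99), Txnip (1.80), Bpgm (1.41), mt-Tl1 (1.04), Dusp2 (1.01) and Axl (0.37) also had positive changes in MC38 TAM. Bpgm, mt-Tl1 and Axl did not pass there. Klra8 (2.81) and Ncr1 (1.86) had positive log2 changes in MC38 TAM too. In B16 TAM both genes met the filter through the PBS libraries alone and so had to differ. No opposite response is therefore read from them. Klra8 was at 0 in all PBS libraries of MC38 TAM. Ncr1 did not pass in MC38 TAM, where its groups nearly met (1.49 FPKM after OMV-SIRP and 1.46 FPKM after PBS). Il1b rose in B16 TAM and had a log2 change of -2.12 in MC38 TAM, where its level was 49.6 to 122 FPKM after OMV-SIRP and 220.5 to 525 FPKM after PBS.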

How the results depend on the processing

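Higher and lower genes numbered 111 and 71 as reported, 69 and 43 with no filter on low values, 72 and 64 in a fit of the 6 libraries alone, 101 and 88 with limma voom on recovered reads, 104 and 82 scaled to total reads, 99 and 57 with a pseudocount of 0.1, and 61 and 55 with a 2-fold minimum. Leaving out 1 library gave 51 to 96 higher and 33 to 76 lower. Of 1188 recomputed values of 99 called genes, 882 kept direction and call, 306 kept direction but missed the threshold and 0 reversed. Changes near 0 in genes that were not called reversed: Cd47 ranged from -0.20 to 0.056 over the fits without 1 library (0.031 without OMV-SIRP 2), Mlana from -0.23 to 0.15 (0.056, 0.053 and 0.0074 without OMV-SIRP 1, PBS 1 and PBS 3), and Adgre1 from -0.057 to 0.073 (-0.026 and -0.020 without OMV-SIRP 1 and 2), with -0.032 scaled to total reads. The median of the complement list ranged from -0.33 to 0.17, of the interferon-stimulated list from -0.017 to 0.11 and of the interferon gamma list from -0.089 to 0.10 over the same fits; the cause was not tested. With replicate number as a block the counts were 83 and 57, of which 80 and 53 were among those reported, though the numbers are not known to pair the libraries. At an unadjusted p under 0.05 there were 1204 genes.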
